A study of Homo sapiens with 6 samples.

Results

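The genes described here encode protein disulfide isomerases (PDI) and the oxidases of the endoplasmic reticulum (ER). Members were the probe sets annotated to P4HB, PDIA3, PDIA4, PDIA5, PDIA6, ERP44, TXNDC5, TXNDC12, ERO1A or ERO1B and to no other symbol. Of these 10 genes, 8 had such a probe set, among 19775 genes on the arrays. PDIA5 and TXNDC5 were read only by probe sets that carry a further symbol and were not analysed here. The 8 genes had 21 probe sets, of which 20 lay above the signal floor of 3.71 log2 units on all 6 arrays and 1, of ERO1B, on 0 arrays. Each gene is given by its probe set with the highest mean signal, and the remaining probe sets are set beside it.

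Total RNA of HMLE cells, an immortalised human mammary epithelial line, was measured on 6 Affymetrix U133 Plus arrays, 1 for each group. The Twist line (pBabe-Twist retrovirus; Twist is a transcription factor known to bring about the epithelial-mesenchymal transition) and the control line (pBabe-shGFP retrovirus, a hairpin against GFP) each received the solvent DMSO or the small molecule Cmp302 at 5 µM or 10 µM. These doses and a time of 6 h are those of the titles and the treatment protocol, whereas the treatment tags of the same arrays give 2 µM throughout, with times of 4 h and 8 h. Titles are used as names here, and dose and time cannot be told apart as the step between levels. The labels do not say whether either line was 1 clone or a pool. With 1 array per group a difference between arrays has no replicate check, and precision is limited by how few arrays there are. Tests used limma over all 6 arrays and 12478 genes with 2 residual degrees of freedom, so their spread is departure from the fitted model and not spread between replicates.

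Disulfide bonds form in the ER when PDI enzymes pass oxidising equivalents to newly made secretory and membrane proteins through thioredoxin-like domains. The ERO1 flavoproteins reoxidise PDI with molecular oxygen and give off hydrogen peroxide, which the peroxiredoxin PRDX4 consumes. Many of these genes are targets of the unfolded protein response (UPR), in which the sensors ATF6, IRE1 and PERK act through the transcription factors ATF6, XBP1 and ATF4. ERO1A is also known as a hypoxia-inducible gene, and ERO1B as an isoform abundant in professional secretory tissues such as the pancreas.

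The ER stress response element (ERSE), CCAAT and CCACG set 9 bases apart, is the promoter motif at which ATF6 and XBP1 are known to act together with NF-Y. It was searched on both strands in the 250 bases before each RefSeq gene start (GRCh38.p14). Of the 10 named genes 9 had a window that was kept. A chromosome filter was applied to the windows of the named genes and not to those of all genes. The element was found in 26 of 35114 windows, or 0.074%, and PDIA6 and ERO1B were among their genes. The windows of these genes are printed first, followed by those of PDIA4 and ERP44, the members with the widest change with Cmp302, which held no full element. Capitals mark the element and any CCAAT or CCACG, its ends, on either strand, and these ends occur in 32% and 33.5% of all windows. A full element includes both, so these matches overlap.

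PDIA6, chr2:10812786-10813035, minus strand: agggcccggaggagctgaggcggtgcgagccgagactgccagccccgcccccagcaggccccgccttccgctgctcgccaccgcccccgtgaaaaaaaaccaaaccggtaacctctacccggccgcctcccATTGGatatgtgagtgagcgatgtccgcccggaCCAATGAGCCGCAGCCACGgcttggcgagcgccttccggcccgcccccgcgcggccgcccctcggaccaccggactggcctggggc
ERO1B, chr1:236281959-236282208, minus strand: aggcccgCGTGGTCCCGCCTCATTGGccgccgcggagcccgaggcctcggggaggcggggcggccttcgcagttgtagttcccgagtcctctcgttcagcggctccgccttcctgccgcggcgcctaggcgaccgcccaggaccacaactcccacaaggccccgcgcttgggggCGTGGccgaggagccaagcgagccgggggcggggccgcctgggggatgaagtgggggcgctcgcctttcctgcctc
PDIA4, chr7:149028491-149028740, minus strand: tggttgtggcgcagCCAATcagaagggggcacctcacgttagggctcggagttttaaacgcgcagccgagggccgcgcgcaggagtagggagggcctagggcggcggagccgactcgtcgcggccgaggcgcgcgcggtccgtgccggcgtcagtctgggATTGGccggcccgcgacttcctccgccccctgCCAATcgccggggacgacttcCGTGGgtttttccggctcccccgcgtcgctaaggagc
ERP44, chr9:100099001-100099250, minus strand: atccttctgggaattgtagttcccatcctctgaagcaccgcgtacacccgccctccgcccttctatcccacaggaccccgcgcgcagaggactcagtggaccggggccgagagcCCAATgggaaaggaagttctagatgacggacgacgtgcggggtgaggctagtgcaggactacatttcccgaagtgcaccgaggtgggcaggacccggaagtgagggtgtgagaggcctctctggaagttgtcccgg

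In PDIA6 the element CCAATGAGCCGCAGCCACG lay 86 to 68 bases before the start, and in ERO1B its reverse complement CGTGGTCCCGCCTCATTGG lay 243 to 225 bases before it. PDIA6 has a further window (chr2:10832486-10832735), which held no element, CCAAT or CCACG, and so has PDIA4 (chr7:149025310-149025559), which held 1 CCAAT. The PDIA4 window printed held 3 CCAAT and 1 CCACG on either strand without the 9-base spacing, and the ERP44 window held 1 CCAAT. The C/EBP-ATF element TGATGNAA was in 3.14% of all windows and in 0 of the 13 windows kept for the named genes. The hypoxia response core ACGTG, in 18.5% of all windows, was present for ERO1A, ERP44, PDIA4, PDIA5, TXNDC12 and TXNDC5. The element ERSE-II, in 0.0513% of all windows, was in 0 of the 13. The XBP1 element TGACGTGG (0.612%) and the core TGACGT it overlaps with (7.1%) were present for TXNDC5. A match is a description of these letters, and binding was not measured.

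The cells matched their labels in summed epithelial and mesenchymal markers. Summed over 11 epithelial markers, signal above the floor came to 3.96 to 4.80 log2 units on the Twist arrays and 86.7 to 90.0 on the control arrays, and 7 of them, CDH1 included, lay at the floor on all Twist arrays. For 11 mesenchymal markers the sums were 91.3 to 93.4 and 48.9 to 49.3. Under DMSO 8 of these 11 were higher past 2-fold in Twist cells and 0 lower, against 11.9% and 13.5% of all genes. TWIST1 was higher by only 0.87 log2 units, with 10.70 on the control array, and FN1 by 0.25. Sums were 0 to 0.28 on Twist arrays and 0.64 to 1.10 on control arrays for 4 blood markers, 3.49 to 3.93 and 0.09 to 0.34 for 4 endothelial markers, 6.91 to 7.29 and 4.06 to 4.47 for 4 fat cell markers, and 7.62 to 8.53 and 9.33 to 9.92 for 3 plasma and secretory cell markers. All but 1 gene of each of these 4 lists lay at the floor on every array, PTPRC, CDH5 and ADIPOQ among them. The exceptions were CD14, PECAM1, FABP4 and SDC1. On the Twist and control DMSO arrays they had 3.99 and 4.81, 7.64 and 4.05, 10.89 and 8.18, and 11.33 and 13.63 log2 units in that order. A 3' to middle contrast of the GAPDH and ACTB probe sets, a measure of RNA integrity, was 0.955, 0.355 and 0.445 log2 units on the Twist DMSO, 5 µM and 10 µM arrays, and 0.280, 0.450 and 0.835 on the control arrays in that order. It was highest on the Twist DMSO array, to which the treated Twist arrays are compared. Quality-matched values stand beside the main results; in these the dependence of a gene on the contrast, fitted on the 3 control arrays, was taken off the Twist arrays. That dependence also holds any response of the control line to Cmp302.

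With Cmp302 in the Twist line, PDIA4, ERP44 and ERO1B rose, while P4HB, PDIA3, PDIA6, TXNDC12 and ERO1A did not pass the test. The 3 genes rose by 0.48 to 0.70 log2 units per level, and 0 members fell. Over all genes 10.8% rose and 11.4% fell in the same fit, and at an unadjusted limma p of 0.05 there were 4 members, beside 42.4% of all genes in either direction. All 8 members lay above their DMSO value at 5 µM and all 8 at 10 µM, where 49.8% and 49.7% of all genes did. Among genes with a mean signal of at least 10 log2 units, 46.2% and 45.5% did. The 8 changes had a median of 0.30 log2 units for 5 µM and 0.31 for 10 µM, against -0.0017 and -0.01 over all genes measured. Past a fixed 2-fold threshold, 1 log2 unit, 2 members were higher at 5 µM and 2 at 10 µM, where 4.26% and 8.04% of all genes were, or 4.3% and 6.53% of genes with a mean of at least 10. Lower past 2-fold were 0 members, against 5.01% and 8.46% of all genes.

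**Figure D1:**
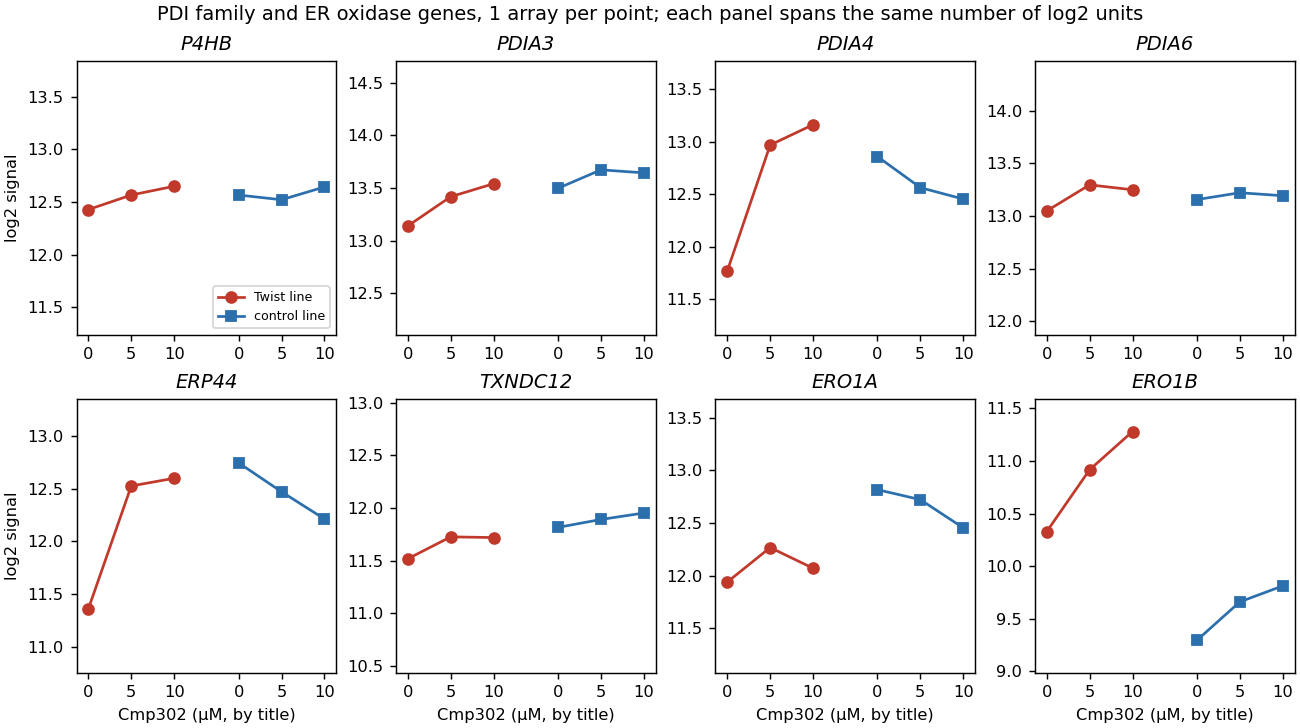
Log2 signal of the 8 genes on each array (y axis, panels of equal span) by Cmp302 dose in the titles (x axis, µM), with the Twist line as red circles and the control line as blue squares, 1 array per point. PDIA4 and ERP44 step up from the Twist DMSO array to both Cmp302 arrays, and ERO1B lies higher on all Twist arrays than on any control array.

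PDIA4 encodes ERp72, a PDI with several catalytic thioredoxin-like domains. Its signal was 11.77 log2 units on the Twist DMSO array, 12.97 at 5 µM and 13.16 at 10 µM. In the control line it was 12.86, 12.56 and 12.45 in the same order. The Twist DMSO array was the lowest of the 6 and both treated Twist arrays were the highest. PDIA4 was thus 2.29-fold higher at 5 µM and 2.62-fold higher at 10 µM in Twist cells, the second of these being 1.39 log2 units, and ranked 252nd of 11868 and 375th of 11931 genes. The Twist-line slope was 0.70 ± 0.14 log2 units per level (SE, limma adjusted p = 0.0301). Quality-matched, the changes were 0.81 and 1.06. The other PDIA4 probe set went another way, with 8.56, 8.30 and 8.79 log2 units in Twist cells and 9.88, 10.03 and 9.29 in control cells, and its changes in Twist cells were -0.26 and 0.23.

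ERP44 encodes a PDI-family protein of the early secretory pathway that retains ERO1 oxidases and unassembled clients through mixed disulfides. Its signal was 11.36, 12.53 and 12.60 log2 units on the Twist DMSO, 5 µM and 10 µM arrays. The control arrays gave 12.75, 12.47 and 12.21 in that order. The Twist DMSO array again stood below the other 5, while both treated Twist arrays lay within the range of the control line. ERP44 was 2.25-fold higher at 5 µM and 2.36-fold higher at 10 µM, or 1.17 and 1.24 log2 units, with a slope of 0.62 ± 0.15 per level (SE, limma adjusted p = 0.0398). Quality-matched, both changes were under 2-fold, 0.62 and 0.78. A further ERP44 probe set gave 1.07 and 1.44, and one near 6.4 log2 units on all arrays gave -0.15 and -0.03.

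ERO1B, the oxidase isoform named above, had 10.33, 10.92 and 11.28 log2 units on the Twist DMSO, 5 µM and 10 µM arrays. On the control arrays it had 9.30, 9.66 and 9.81. It was the only member that went up at each step in both lines. In Twist cells it changed by 0.59 log2 units at 5 µM and by 0.95, or 1.93-fold, at 10 µM, just under the 2-fold threshold. The Twist-line slope was 0.48 ± 0.10 per level (SE, limma adjusted p = 0.0304). Quality-matched, the changes were 1.09 and 1.38, past 2-fold, the reverse of the shift in PDIA4 and ERP44. Only 1 probe set read ERO1B above the floor.

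The remaining PDI genes moved little on their brightest probe sets. P4HB encodes PDI itself, which is also the beta subunit of collagen prolyl 4-hydroxylase. It had 12.43, 12.57 and 12.65 log2 units on the Twist DMSO, 5 µM and 10 µM arrays and 12.57, 12.52 and 12.64 on the control arrays. Its slope was 0.11 ± 0.08 per level (SE, limma adjusted p = 0.34). The groups overlapped, with all 6 arrays within 0.22 log2 units.

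PDIA3 encodes ERp57, the isomerase that works on glycoproteins with calnexin and calreticulin. It had 13.14, 13.42 and 13.54 log2 units in Twist cells and 13.50, 13.67 and 13.64 in control cells. Its slope was 0.20 ± 0.08 per level (SE, limma adjusted p = 0.109). The Twist DMSO array was again the lowest. With the median signal over probe sets on each array the slope was 0.78 ± 0.15 (limma adjusted p = 0.0308). That median was the same single probe set on every array, the PDIA3 probe set of widest change. Quality-matched, the slope of the brightest probe set was 0.25 ± 0.06 (limma adjusted p = 0.0224).

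PDIA6 encodes the PDI-family protein P5, which associates with the chaperone BiP. It had 13.05, 13.30 and 13.25 log2 units in Twist cells and 13.16, 13.22 and 13.19 in control cells (Twist-line slope 0.10 ± 0.08, SE, limma adjusted p = 0.402). TXNDC12 encodes ERp18, a small thioredoxin-like ER protein. It had 11.52, 11.73 and 11.72 log2 units in Twist cells and 11.82, 11.89 and 11.95 in control cells (slope 0.10 ± 0.09, SE, limma adjusted p = 0.417). All Twist values of TXNDC12 lay below all control values, by at least 0.09 log2 units at the nearest pair.

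ERO1A, the widely expressed oxidase, had 11.94, 12.27 and 12.07 log2 units on the Twist DMSO, 5 µM and 10 µM arrays. The control arrays gave 12.82, 12.72 and 12.45. The groups did not overlap, with every Twist array below every control array. Its Twist-line changes were 0.33 and 0.13 log2 units with a slope of 0.07 ± 0.10 per level (SE, limma adjusted p = 0.682). Quality-matched they were -0.07 and -0.21, so their sign rests on the matching.

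**Figure D2:**
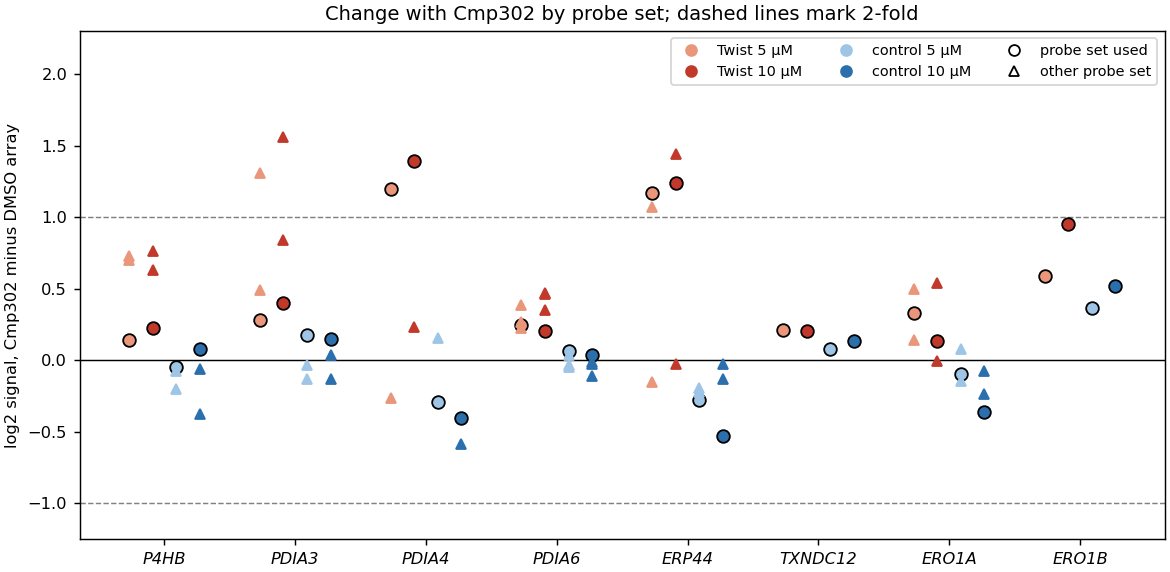
Log2 change from the DMSO array of the same line (y axis) for each probe set of each gene (x axis), in Twist cells (red, 5 µM lighter) and control cells (blue, 5 µM lighter). Outlined circles are the probe sets used for the gene and triangles the others; in the Twist line 18 of 20 probe sets lie above 0 at each level, and in the control line 7 and 6 do.

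Probe sets of a gene differed in size of change. Of 20 probe sets above the floor, 18 lay above DMSO at 5 µM and 18 at 10 µM in Twist cells, where 50.7% of all probe sets did at each level. Past 2-fold were 4 at each level, against 4.44% and 8.54% of all probe sets. PDIA3 had the widest change of any probe set, 1.31 and 1.56 log2 units, while its brightest one gave 0.28 and 0.40. With the median signal over probe sets on each array, the 2 members past 2-fold at each level were thus PDIA3 and ERP44, and PDIA4 had 0.47 and 0.81. For PDIA3 that median was the probe set of widest change on every array. The median of its 3 changes was 0.49 and 0.84, under 2-fold. The other P4HB probe sets gave 0.73 and 0.70 at 5 µM and 0.76 and 0.63 at 10 µM, above the 0.14 and 0.22 of the brightest. The 4 PDIA6 probe sets ranged from 0.20 to 0.47 at 10 µM and the 3 of ERO1A from -0.01 to 0.54. Position of the probe sets along the transcripts was not analysed here.

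Most of the Twist-line change lay between DMSO and 5 µM. Between 5 µM and 10 µM the 8 members moved by -0.20 (ERO1A) to 0.36 (ERO1B) log2 units, with a median of 0.08. Here 0 members were past 2-fold, where 0.593% of all genes were higher and 0.508% lower, and 5 lay above their 5 µM value, as did 49.5% of all genes. The Twist DMSO array is the baseline of each change, and 7 of 8 members, all but ERO1B, had their lowest signal of the 6 arrays on it. Over all genes tested 22.1% did, and 27.6% of genes with a mean signal of 10 log2 units or more. The high 3' to middle contrast of that array moves with this low signal, and its part in the result was not tested. Without that array the slopes of PDIA4, ERP44 and ERO1B were 0.19, 0.07 and 0.36, with limma adjusted p = 0.477, 0.58 and 0.385. Leaving out any 1 control array cannot change the Twist-line slopes of these genes, which are fitted on the Twist arrays. It acted through the spread and gave limma adjusted p = 0.282 to 0.294. Leaving out the Twist 10 µM array gave 0.0586 to 0.0914, and leaving out the Twist 5 µM array 0.0392 to 0.048. These fits had 1 residual degree of freedom, and all but the last called 0 of 12478 genes.

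In the control line 0 of 8 members passed the test with Cmp302, as did 0% of all genes in each direction, and at an unadjusted limma p of 0.05 there was 1 member, ERO1B, beside 7.51% of all genes. Past 2-fold were 0 members at either level, against 0.0585% of genes higher and 0.0668% lower at 5 µM, and 0.2% and 0.259% at 10 µM. At 5 µM 4 members and at 10 µM 5 members lay above DMSO, where 48.2% and 46% of all genes did. ERO1B had the highest change, 0.37 and 0.52 log2 units (slope 0.26 ± 0.10 per level, SE, limma adjusted p = 0.621). ERP44 had -0.28 and -0.53, the lowest change at 10 µM (slope -0.27 ± 0.15, SE, limma adjusted p = 0.621). PDIA4 had -0.30, the lowest at 5 µM, and -0.40, and ERO1A -0.10 and -0.36. The other members stayed within 0.18 log2 units of DMSO.

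The slopes of the lines differed most for PDIA4, by 0.90 ± 0.20 log2 units per level, Twist minus control (SE, limma adjusted p = 0.0547), and for ERP44, by 0.89 ± 0.21 (SE, limma adjusted p = 0.0566). Neither passed the threshold, so 0 of 8 members were called, where 0.729% of all genes were higher and 0.793% lower. At an unadjusted limma p of 0.05 there were 2 members, beside 39.5% of all genes. With the levels coded as DMSO against Cmp302, the differences were 1.64 log2 units for PDIA4 and 1.61 for ERP44. Under this coding the spread came only from the difference between the Cmp302 arrays within each line. It holds no check on the single DMSO array of each line, so only the sizes are given. For ERO1B the difference in slope was 0.22 ± 0.14 (SE, limma adjusted p = 0.292).

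Between the lines the oxidases went opposite ways. ERO1B was higher in Twist cells by 1.25 ± 0.20 log2 units over the 3 treatments (SE, limma adjusted p = 0.0079), the only member called. ERO1A differed by -0.57 ± 0.19 (SE, limma adjusted p = 0.0798), with lower signals at all 3 treatments. Over all genes 13.7% were higher and 14.9% lower, so 1 of 8 called members is a share near the background, and at an unadjusted limma p of 0.05 there were 2 members, beside 39.1% of all genes. Without the Twist or the control 5 µM array the ERO1B estimate was still 1.25, but with 1 residual degree of freedom it did not pass (limma adjusted p = 0.084 and 0.0752). Without the Twist DMSO array PDIA4 (0.56, limma adjusted p = 0.00334) and ERO1A (-0.42, limma adjusted p = 0.0125) were called as well, and without the control DMSO array likewise (0.00304 and 0.0121). Once 1 array of a treatment is left out, the other no longer enters the line estimate. The fits without either array of a treatment thus share their estimate and are no separate checks. The Twist and control values did not overlap for 3 members (ERO1B, ERO1A and TXNDC12), whereas 49.8% of all genes did not overlap.

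On the DMSO arrays alone 2 members were lower past 2-fold and 1 higher, against 13.5% and 11.9% of all genes. Above the control line lay 1 member under DMSO and 5 at either Cmp302 level, where 50%, 49.1% and 49.1% of all genes did. ERP44 differed by -1.39 log2 units, PDIA4 by -1.09, ERO1A by -0.88 and ERO1B by 1.03. Quality-matched these were -0.77, -0.65, -0.43 and 0.47, so 0 members were past 2-fold. Which members passed also depended on the probe sets. With the median signal over them on each array 3 were lower past 2-fold, PDIA3 (-1.15), PDIA4 (-1.20) and ERO1A (-1.23), and 0 higher. For PDIA3 and ERO1A this was a single probe set on all arrays. ERP44 then had -0.52 and ERO1B 0.39, a value that takes in the ERO1B probe set under the floor. The median of the differences was -1.07 for PDIA3 and -0.88 for ERO1A. The 1 ERO1B probe set above the floor gave 1.03. Of the 20 single probe sets 6 were lower past 2-fold and 1 higher, against 12.4% and 11.8% of all probe sets. With Cmp302 PDIA4 differed by 0.41 at 5 µM and 0.71 at 10 µM, and ERP44 by 0.06 and 0.39. ERO1B differed by 1.26 and 1.47, the 1 member past 2-fold at either level, against 12.1% and 14.8% of all genes higher and 12.6% and 14.1% lower. ERO1A differed by -0.46 and -0.38. On their brightest probe sets P4HB, PDIA3, PDIA6 and TXNDC12 lay between -0.36 and 0.08 at every treatment. Under DMSO the other probe sets gave -1.15 and -1.07 for PDIA3 and -0.84 and -0.72 for P4HB.

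**Figure D3:**
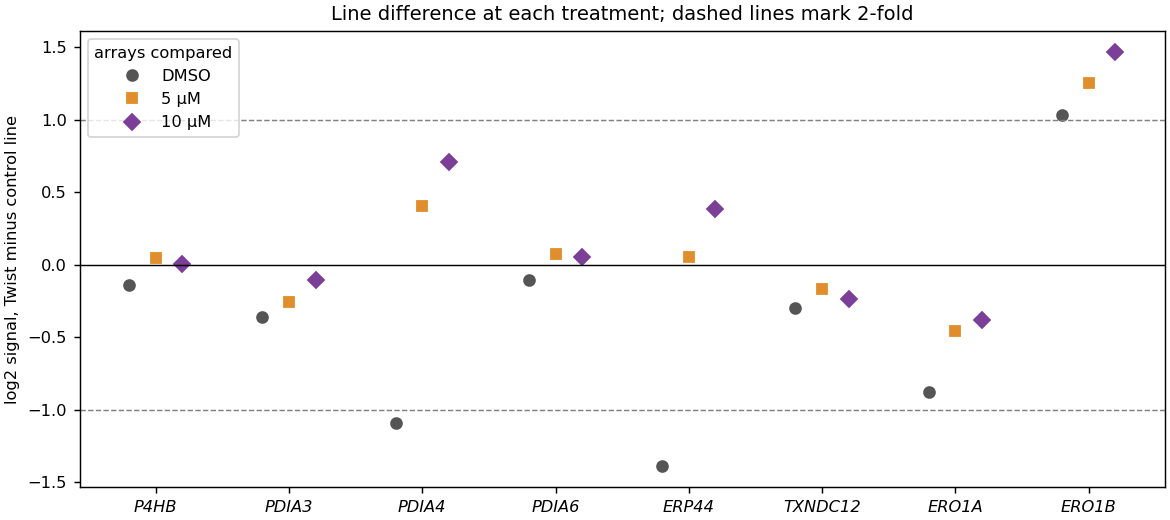
Log2 signal in the Twist line minus the control line (y axis) for each gene (x axis), on the DMSO arrays (grey circles), the 5 µM arrays (orange squares) and the 10 µM arrays (purple diamonds), 1 array per line and treatment. PDIA4 and ERP44 lie below -1 under DMSO and above 0 with Cmp302, and ERO1B lies above 1 throughout.

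Other PDI-family and thioredoxin-like ER genes were mixed. Of 10 measured, 2 rose and 2 fell in the Twist line with Cmp302, and the median change at 10 µM was -0.10 log2 units. TXNDC11 rose by 0.65 ± 0.12 per level (SE, limma adjusted p = 0.0253). ERP29, a PDI-like chaperone without the redox-active cysteine pair, rose by 0.57 ± 0.14 (SE, limma adjusted p = 0.039). The membrane-bound thioredoxin-like gene TMX1 fell by 0.61 ± 0.12 on the log2 scale (SE, limma adjusted p = 0.0272). AGR2, a PDI-family gene of mucous epithelia, was at the floor on all 3 Twist arrays and at 6.55, 5.87 and 5.89 log2 units on the control DMSO, 5 µM and 10 µM arrays.

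In a list of other genes set beside ER redox enzymes 2 of 13 rose and 3 fell. Not all of them are ER redox enzymes: ERMP1 encodes an ER metallopeptidase, AIFM2 a ubiquinone reductase of the plasma membrane and lipid droplets, and RCN1 a calcium-binding protein. SELENOS, a selenoprotein of ER-associated degradation, rose by 0.69 ± 0.08 per level (SE, limma adjusted p = 0.0124), and AIFM2 by 0.49 ± 0.12 (SE, limma adjusted p = 0.04). ERMP1 fell by 0.61 ± 0.10 (SE, limma adjusted p = 0.0199) and the methionine sulfoxide reductase gene MSRB3 fell by 0.51 ± 0.11 (SE, limma adjusted p = 0.033). Between lines 5 of these 13 genes were higher in Twist cells and 1 lower. MSRB3 was higher by 1.56 ± 0.28 and QSOX1, a sulfhydryl oxidase of the secretory pathway, by 1.53 ± 0.24 (SE, limma adjusted p = 0.0119 and 0.00772).

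Of 15 measured partners and clients of the members 3 rose and 1 fell in the Twist line. HSPA5, encoding BiP, rose by 0.54 ± 0.12 per level (SE, limma adjusted p = 0.0365), and TAPBP, whose product tapasin binds ERp57 in the peptide-loading complex, by 0.50 ± 0.10 (SE, limma adjusted p = 0.0304). P4HA1, the catalytic partner of P4HB, had the lowest change, -0.66 and -0.77 log2 units (slope limma adjusted p = 0.0504). P4HA3, a further catalytic subunit, was at the floor on all control arrays and at 4.89, 6.03 and 5.59 log2 units on the Twist DMSO, 5 µM and 10 µM arrays.

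The UPR list lay furthest from DMSO of the 6 lists set beside the members. Of its 16 genes 12 rose in the Twist line and 0 fell, with a median change of 1.59 log2 units at 5 µM and 2.10 at 10 µM, against 0.30 and 0.31 for the members. DDIT3, encoding CHOP, a transcription factor known to activate ERO1A, was at 6.16, 11.44 and 11.96 log2 units in Twist cells and at 5.26, 5.62 and 5.38 in control cells. TRIB3 was higher by 4.96 and 5.64, while DNAJC3 had changes of -0.09 and 0.07 and the sensor gene EIF2AK3 of -0.28 and 0.11. This list was drawn up with earlier results of these data known, and its direction is no independent evidence.

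Hypoxia-inducible genes, listed because ERO1A is one, had a median change of 0.01 at 5 µM and -0.05 at 10 µM in Twist cells, with 2 of 14 rising (ALDOA and NDRG1) and 0 falling. Of 8 cytosolic thioredoxin and glutathione genes 2 rose and 1 fell, led by the glutaredoxin gene GLRX with changes of 0.71 and 1.23. GSR, encoding glutathione reductase, had -0.73 at 10 µM.

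**Figure D4:**
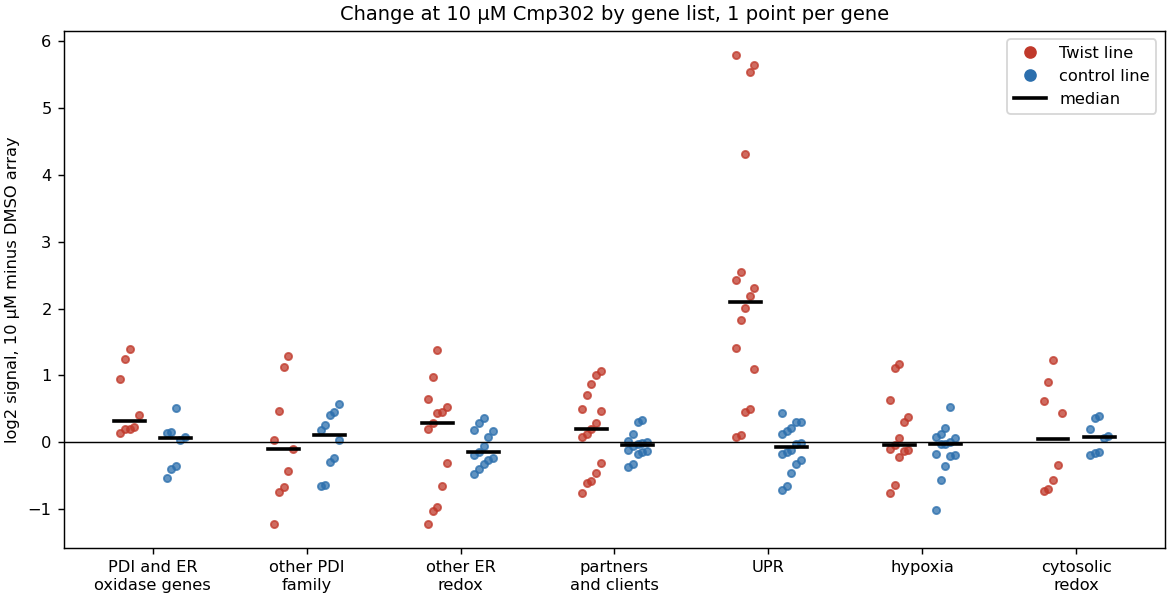
Log2 change at 10 µM Cmp302 from the DMSO array of the same line (y axis) for the 8 PDI and ER oxidase genes and 6 lists of other genes (x axis), 1 point per measured gene, Twist line in red and control line in blue, with medians as black bars. The Twist-line median is 0.31 for the PDI and oxidase genes and 2.10 for the UPR list.

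Genes with an ERSE before their start were few on the arrays. The 26 windows belonged to 25 genes, of which 15 were measured in the Twist comparison. The median of their changes came to 0.25 log2 units for 5 µM and 0.46 for 10 µM, and to 0.22 and 0.46 over the 13 that are no members. Over all genes the medians were -0.0017 and -0.01. At 10 µM 3 of the 15 were higher past 2-fold and 0 lower, against 8.04% and 8.46% of all genes. The 3 were CRELD2, also in the UPR list, HSPA5, also among the partners, and FICD. In the control line the medians were 0.015 and 0.04, with 0 past 2-fold. The members PDIA6 (0.20 at 10 µM) and ERO1B (0.95) lay on either side of the Twist-line median at 10 µM, and PDIA4 and ERP44 had wider changes without the element in the window.

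The genes whose profiles over the 6 arrays lay nearest to a member were found among 10787 genes above the floor on every array, by the Euclidean distance between mean-centred log2 signals, for the 3 members with a range of at least 1 log2 unit. Nearest to PDIA4 were the seryl-tRNA synthetase gene SARS1 (distance 0.07), the helicase gene DDX56 (0.10) and RNASEH1 (0.10). Nearest to ERP44 were the glycolytic gene ALDOA (0.12), GRPEL1 (0.15) and BMS1P20 (0.17). Nearest to ERO1B were BBS4 (0.29), ZNF568 (0.29) and DCLRE1C (0.32). SARS1 had 11.33, 12.54 and 12.69 log2 units on the Twist DMSO, 5 µM and 10 µM arrays and 12.45, 12.10 and 11.95 on the control arrays, the shape seen for PDIA4. All these profiles share the same 6 arrays.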

How the data were processed

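The deposited table holds signals that were taken as log2 because of their range; the labels name no unit. Per the submitters' processing notes GCOS 1.2 was used, and background correction, summarisation and normalization are not given in the sources used here. Of 54675 probe sets 62 controls, 1801 with several symbols and 11721 with none were left out. Each array was shifted to a median log2 ratio of 0 to the mean array over the brighter probe sets, and signals under the median of all values, 3.71, were set to that floor. The brightest probe set gave the gene. The limma 3.58.1 fits in R 4.3.3 (eBayes with signal trend, Benjamini-Hochberg over 12478 genes that passed the floor on 2 or more arrays, threshold 0.05) had line plus treatment, or line, level coded 0, 1 and 2 and their interaction. They were tested on simulated data. All 8 measured members are named, of each other list genes among the 2 highest and 2 lowest in a comparison, and for members with a range of at least 1 log2 unit the 3 nearest genes. Members and lists were chosen with earlier results of these data known. Promoter sequences are from RefSeq.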

Additional observations from a re-analysis of the deposited data

Results flagged for a closer look

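For 3 genes the Cmp302 arrays lay above DMSO in the Twist line and below it in the control line at both levels, on their brightest probe sets. Each also had a probe set that did not share this. That of PDIA4 gave -0.26 in Twist cells and 0.155 in control cells at 5 µM. Quality-matched, the ERO1A changes in Twist cells were negative. The mean change over both levels, Twist minus control, was 1.64 log2 units for PDIA4, 1.61 for ERP44 and 0.46 for ERO1A. By slope over the levels the limma adjusted p was 0.0547, 0.0566 and 0.249 in that order. These genes were picked by the difference between lines, so the p-values are no independent support. The share of all genes with opposite directions in the 2 lines is not given here. Both lines had 1 DMSO array each, so each of these values rests on 2 baseline arrays.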

How the results depend on the processing

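No paired analysis of replicates was possible because each group had 1 array, so no replicate block could be fitted. The line effect has treatment as a term and so compares the lines within each treatment. Of the 8 members, the line effect called 1, against 0 with the median over probe sets, where the ERO1B probe set under the floor counts too, 2 quality-matched, 3 without the DMSO pair and 0 without the 5 µM pair. The difference of trends called 0, against 2 quality-matched and 2 with no filter and no floor. Quality matching adjusted only the Twist arrays, so it set an adjusted Twist slope against an unadjusted control slope. Its 2 calls do not show a difference of trends free of RNA quality. For these other settings of both tests the shares of all genes called are not given here. Past 2-fold at 5 µM in Twist cells were 2 members, PDIA4 and ERP44, but 1 when quality-matched, ERO1B. With the control-line array of the same treatment as baseline, chosen after seeing the data, the change becomes a line difference. Then 1 member was past 2-fold at 5 µM and 1 at 10 µM, ERO1B each time, and PDIA4 and ERP44 were not. Under DMSO 3 were past 2-fold between lines and 0 quality-matched. Leaving out 1 array at a time gave 0 to 3 members for the line effect, 0 to 3 for the Twist-line trend and 0 to 2 for the difference of trends, with 1 residual degree of freedom. The deposited scaling, quantile normalization, a floor at percentile 35 or 65 and eBayes without the signal trend left each count of members as it was. The cause of the other shifts was not tested.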
